A study of Mus musculus with 6 samples.

Results

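The genes described here are the 10 genes of the mouse major histocompatibility complex (MHC) class II presentation machinery chosen by symbol: the classical chains H2-Aa, H2-Ab1 and H2-Eb1, the chaperone Cd74, the peptide editor chains H2-DMa, H2-DMb1 and H2-DMb2, the editor's inhibitor chains H2-Oa and H2-Ob, and the transactivator Ciita. All 10 were found among 22098 gene names, each with 1 transcript row, and all 10 were among the 10322 genes that passed the filter on low values (a mean of at least 1 RPKM, a read density per length and per library size). RNA came from IgM+ B cells sorted out of the marrow of C57BL/6 animals aged 6 weeks. There were 3 genotypes with 2 libraries each: wild type, mice homozygous for loss of zinc finger 1 of Ikaros (labelled Ikaros_ZnF1-/-, here ZnF1-/-) and mice homozygous for loss of zinc finger 4 (labelled Ikaros_ZnF4-/-, here ZnF4-/-). The labels name no treatment. The labels do not say that either change is confined to B cells, nor how many animals each library holds, so p-values measure the spread between these libraries, which may be technical.

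MHC class II molecules are pairs of an alpha and a beta chain that show peptides from endosomes to CD4+ T cells, and B cells carry them on their surface. New pairs bind the invariant chain Cd74, whose last fragment is exchanged for peptide by H2-DM, an editor that H2-O holds back in B cells. Ciita does not bind DNA itself. It is recruited to class II promoters by factors bound to a conserved X box and Y box. Ikaros is a zinc finger DNA-binding protein needed for lymphocyte development.

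Letters of the conserved boxes were found in the reference promoters, which are shown because these boxes are where Ciita is recruited. Not all of the genes matched the exact letters searched, and a missing match does not show a missing box. RefSeq promoters (assembly GRCm38.p6, 250 bases before to 50 after the gene start) were matched by symbol for 7 of the 10 genes, H2-DMa with a pair of start sites. The windows below lie at chr17:34305772-34305818 for H2-Eb1, chr17:34153093-34153140 for H2-DMb1, chr17:34145122-34145169 for H2-DMb2, chr17:34238814-34238858 for H2-Ob and chr17:34092289-34092346 for H2-Oa, all on the plus strand, and at chr17:34287861-34287918 on the minus strand for H2-Aa. Each window is upstream of the gene start, and capitals mark the X box core (AAC, any 2 bases, then ATGATGC) and the Y box (TGATTGG), both searched on both strands.
H2-Eb1: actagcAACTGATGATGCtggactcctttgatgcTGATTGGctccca
H2-DMb1: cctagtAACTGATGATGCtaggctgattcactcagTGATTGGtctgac
H2-DMb2: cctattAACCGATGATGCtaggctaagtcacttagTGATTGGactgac
H2-Ob: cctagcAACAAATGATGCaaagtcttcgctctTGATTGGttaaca
H2-Oa: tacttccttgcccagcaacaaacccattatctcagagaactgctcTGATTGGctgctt
H2-Aa: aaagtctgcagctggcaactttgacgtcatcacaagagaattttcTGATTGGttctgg

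The Y box was present in 6 of these 7 genes and in 7.82% of all 32851 promoters of the same length. It started 45 bases before the gene start in H2-Oa, 50 in H2-Aa, 59 in H2-Ob, 61 in H2-Eb1, 63 in H2-DMb1 and 92 in H2-DMb2. The letters of the X box core were found in 4 of the 7 genes and in 0.0396% of all promoters, but they were chosen after these promoters had been read, so that contrast is a description. Where both were present, the Y box began 26 to 29 bases after the first base of the X box core. Of all promoters, 5 held both, and 4 of these 5 belonged to the genes described here. The choice of the X box letters favoured that count, so it too is a description. The letters TGGGAA, the core of the DNA sequence that Ikaros is known to bind, were present on either strand in H2-Aa, H2-Ob and H2-Oa, that is in 3 of the 7 genes, and in 25.6% of all promoters. A match of letters is no measured binding site, and the windows of H2-DMa matched none of the 3 sets of letters. Variants of the boxes were not searched, so H2-Aa, H2-Oa and H2-DMa are not shown to lack an X box.

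No gene of the machinery passed the test in any of the 3 comparisons, and the levels of most of them differed between replicates of a mutant. ZnF4-/- replicate 2 held the highest level of 9 of the 10 genes, with a median excess of 0.75 over the wild-type mean on the log2 scale, whereas ZnF4-/- replicate 1 lay close to wild type with a median of 0.08. ZnF4-/- replicate 2 was the highest library for 22.7% of all tested genes. The exception was H2-DMb1, the DM beta chain with the lower level, which was highest in ZnF1-/- replicate 1, as were 17.1% of all tested genes. The sum of the 10 genes made up between 3.47% and 4.81% of the summed RPKM in the other 5 libraries and 6.00% in ZnF4-/- replicate 2. RNA came from bulk populations, in which fewer cells of a type and less RNA per cell cannot be told apart.

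**Figure D1:**
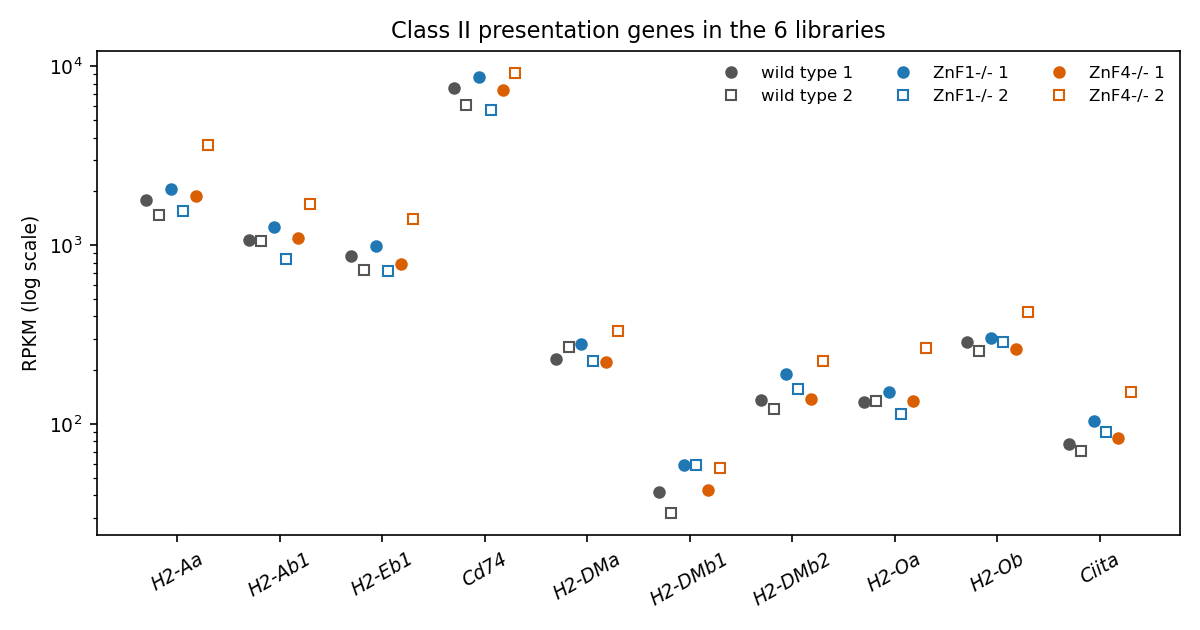
RPKM (log axis) of the 10 class II presentation genes in each library; circles are replicate 1 and open squares replicate 2 of wild type (grey), ZnF1-/- cells (blue) and ZnF4-/- cells (orange). The open orange square, ZnF4-/- replicate 2, is the highest point of every gene but H2-DMb1.

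A few facts on the libraries bear on these values. All 7 measured B cell markers were abundant (summed level 4632 to 5625 RPKM). ZnF1-/- replicate 2 held the most RNA of granulocyte markers, with a summed level of 7557 RPKM over 8 genes against 1424 in ZnF1-/- replicate 1, 1778 and 1955 in ZnF4-/- cells and 448 and 712 in wild type, so that all 4 mutant libraries exceeded both wild-type libraries, and of erythroid markers, with 516 RPKM against 79.6 to 198.5. Sex-linked genes placed replicate 2 of both mutants as male and the other 4 libraries as female, so wild type has no male library. Relative to the wild-type mean, the class II median was 0.75 in ZnF4-/- replicate 2, with all 10 genes above that mean. It was -0.10 in ZnF1-/- replicate 2, with 4 genes above that mean. The part of sex was not tested beyond a term in the fit. Ikzf1, the gene changed in both mutants, was at 176.5 and 178.6 RPKM in wild type, 201.1 and 168.4 in ZnF1-/- cells and 287.3 and 244.0 in ZnF4-/- cells, and none of its 3 comparisons passed (smallest adjusted p = 0.111). A single RPKM for a transcript does not show whether a finger is missing, so it does not check the labels.

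Per length of transcript, the levels of the 10 genes spanned a wide range in wild type. Cd74 was the most abundant transcript of all tested genes in every library, at 6829 ± 1019 RPKM (SD, n = 2) in wild type. It was followed by H2-Aa with a mean of 1624, H2-Ab1 with 1063 and H2-Eb1 with 801 RPKM, and the libraries of these neighbours did not overlap. The inhibitor chain H2-Ob (272 RPKM) and the editor chain H2-DMa (250 RPKM) came next, with overlapping libraries, and H2-Oa (134 RPKM) and H2-DMb2 (129 RPKM) overlapped as well. Ciita, at 74.1 RPKM, and H2-DMb1, at 37.0 RPKM, were lowest, although still above the median of all tested genes, which lay between 11.8 and 12.3 RPKM per library. The order of the means was the same in ZnF4-/- cells. In ZnF1-/- cells H2-DMb2 and H2-Oa changed places, with libraries that did not overlap.

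Among the classical chains, H2-Aa, the alpha chain of the H2-A molecule, had the widest spread. The level of H2-Aa was 1780 RPKM in the first wild-type library and 1467 in the second, 2068 and 1557 in ZnF1-/- cells, and 1878 and 3652 in ZnF4-/- cells. Both ZnF4-/- libraries were above both wild-type libraries, but replicate 1 only narrowly, and the mutants overlapped. The log2 fold change was 0.70 in ZnF4-/- cells (SE 0.37, adjusted p = 0.384), equal to a 1.62-fold difference with a 95% interval from 0.890 to 2.95, and 0.15 in ZnF1-/- cells (SE 0.37, adjusted p = 0.925). Without ZnF4-/- replicate 2 the ZnF4-/- value was 0.22, and without ZnF4-/- replicate 1 it was 1.18 (adjusted p = 0.829 and 0.258). Its partner H2-Ab1, the H2-A beta chain, was at 1064 and 1062 RPKM in wild type, 1267 and 838 in ZnF1-/- cells and 1101 and 1711 in ZnF4-/- cells. The wild-type pair differed by less than 3 RPKM, and the ZnF1-/- libraries lay on either side of it. H2-Ab1 gave a log2 fold change of 0.37 in ZnF4-/- cells (adjusted p = 0.578) and -0.04 in ZnF1-/- cells (adjusted p = 0.980).

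H2-Eb1 encodes the beta chain of the H2-E molecule, whose alpha chain gene is known to be defective in C57BL/6 mice. H2-Eb1 was at 871 and 731 RPKM in wild type, 988 and 722 in ZnF1-/- cells and 781 and 1410 in ZnF4-/- cells. All genotypes overlapped, and ZnF4-/- replicate 2 stood highest, ahead of ZnF1-/- replicate 1. The row of the defective alpha chain, H2-Ea-ps, was listed between 0.0 and 0.3 RPKM in the 6 libraries. H2-Eb2, a further class II beta gene outside the 10, was at 33.6 and 29.2 RPKM in wild type, 36.7 and 17.8 in ZnF1-/- cells and 26.1 and 50.3 in ZnF4-/- cells, and it too was highest in ZnF4-/- replicate 2. Alpha and beta chains of H2-A did not keep a fixed ratio: H2-Aa to H2-Ab1 was 1.67 and 1.38 in wild type, 1.63 and 1.86 in ZnF1-/- cells, and 1.71 and 2.13 in ZnF4-/- cells. In ZnF4-/- replicate 2 the alpha chain was therefore further above the beta chain than in the other 5 libraries.

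Cd74, the invariant chain, had the smallest ratio of ZnF4-/- replicate 2 to replicate 1 among the 10 genes, at 1.25, against 1.95 for H2-Aa. Cd74 was at 7550 and 6109 RPKM in wild type, 8720 and 5700 in ZnF1-/- cells, and 7372 and 9205 in ZnF4-/- cells. All genotypes overlapped, and the spread within the ZnF1-/- pair was wider than any difference between genotype means. The log2 fold change was 0.05 in ZnF1-/- cells (SE 0.43, adjusted p = 0.980) and 0.28 in ZnF4-/- cells (SE 0.43, adjusted p = 0.791), with 95% intervals from 0.515- to 2.09-fold and from 0.602- to 2.44-fold. The ratio of Cd74 to the geometric mean of the classical chains was 6.39 and 5.85 in wild type, 6.35 and 5.81 in ZnF1-/- cells, and 6.28 and 4.46 in ZnF4-/- cells. ZnF4-/- replicate 2 thus had the least Cd74 RNA per classical chain RNA, while its Cd74 level was the highest. On the log2 scale the ratio differed by -0.21 between ZnF4-/- cells and wild type (two-sided exact permutation p = 0.667) and by -0.01 between ZnF1-/- cells and wild type (exact permutation p = 0.667). With 2 against 2 libraries that test cannot go below 0.333. The ZnF4-/- difference turned to 0.04 without ZnF4-/- replicate 2, and was -0.46 without ZnF4-/- replicate 1 and -0.40 under quantile normalization, which gives Cd74 the same value in all libraries.

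**Figure D2:**
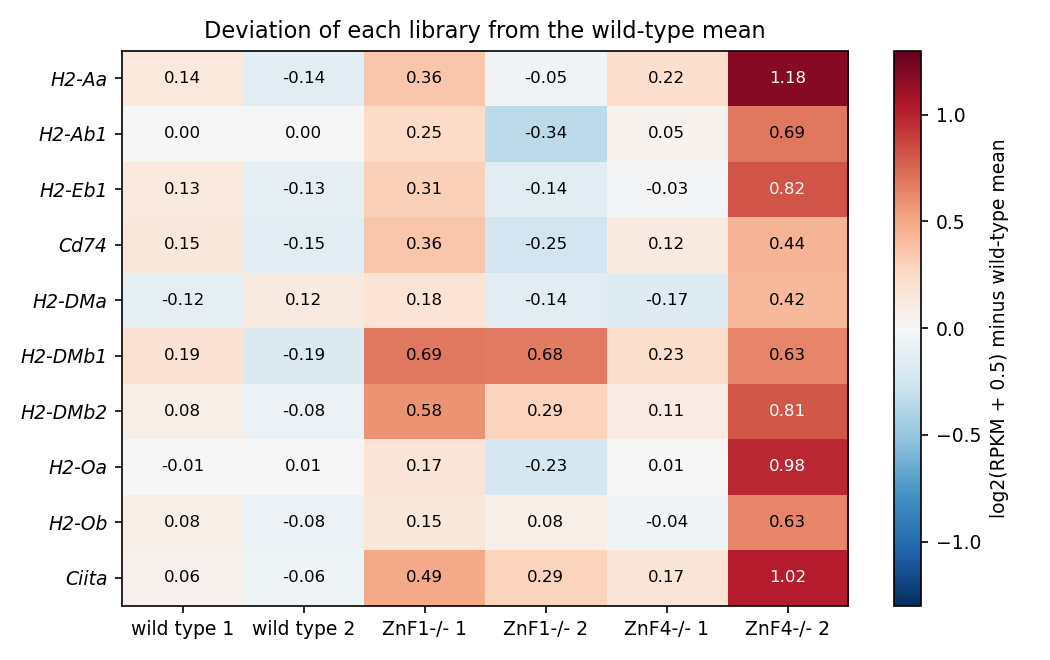
Each cell gives log2(RPKM + 0.5) of a gene in a library minus the mean of the wild-type libraries, from blue (lower) to red (higher). The ZnF4-/- 2 column is positive for all 10 genes (0.42 to 1.18), the ZnF4-/- 1 column lies between -0.17 and 0.23, and H2-DMb1 is higher than wild type in both ZnF1-/- columns (0.69 and 0.68).

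The map of deviations from the wild-type mean also shows the pairs of replicates against each other. In ZnF1-/- cells all 10 genes were higher in replicate 1 than in replicate 2, as were 57.8% of all tested genes. In ZnF4-/- cells all 10 were higher in replicate 2, as were 58.3% of all tested genes, and 8 of the 10 were higher by at least 0.5 on the log2 scale, as were 5.89%. In wild type 8 of the 10 were higher in replicate 1 (49.1% of all tested genes), the others being H2-DMa and H2-Oa. The level of the machinery therefore varied within genotypes, and for every gene but H2-DMb1 the difference within the ZnF4-/- pair was wider than any fold change between genotypes.

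The peptide editor H2-DM pairs the alpha chain H2-DMa with either beta chain. H2-DMb1 was the gene of the machinery with the smallest p. H2-DMb1 levels were 41.9 and 32.0 RPKM in wild type, 59.2 and 58.8 in ZnF1-/- cells and 42.9 and 56.8 in ZnF4-/- cells. Both mutants lay above wild type without overlap, ZnF4-/- replicate 1 by only 1 RPKM, and both ZnF1-/- libraries lay above both ZnF4-/- libraries. The log2 fold change was 0.68 in ZnF1-/- cells (SE 0.18, unadjusted p = 0.00627, adjusted p = 0.209), equal to 1.60-fold with a 95% interval of 1.20 to 2.15, and 0.43 in ZnF4-/- cells (SE 0.18, unadjusted p = 0.0482, adjusted p = 0.280). Neither passed over all tested genes, and the direct comparison of ZnF4-/- with ZnF1-/- cells gave -0.25 (adjusted p = 0.493). Left out in turn, each library left the ZnF1-/- value between 0.49 and 0.87, lowest without wild-type replicate 2, the library with the lowest H2-DMb1.

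H2-DMb2, the other DM beta chain, was at 136.3 and 121.1 RPKM in wild type, 191.7 and 157.7 in ZnF1-/- cells and 138.3 and 224.9 in ZnF4-/- cells. Both mutants again lay above wild type without overlap, and neither passed: the log2 fold change was 0.44 in ZnF1-/- cells (adjusted p = 0.539) and 0.46 in ZnF4-/- cells (adjusted p = 0.373). H2-DMb1 and H2-DMb2 are neighbouring genes of similar sequence, so reads may have been assigned between them with error. The ratio of H2-DMb2 to H2-DMb1 was 3.25 and 3.78 in wild type, 3.24 and 2.68 in ZnF1-/- cells and 3.22 and 3.96 in ZnF4-/- cells. H2-DMa had the smallest difference of all 10 genes in ZnF4-/- cells, at 230.1 and 270.4 RPKM in wild type, 282.1 and 225.7 in ZnF1-/- cells and 222.0 and 332.8 in ZnF4-/- cells. Its log2 fold change was 0.02 in ZnF1-/- cells and 0.12 in ZnF4-/- cells (adjusted p = 0.989 and 0.825), and the 95% intervals ran from 0.700- to 1.46-fold and from 0.754- to 1.57-fold. The alpha chain thus stood at 1.29 and 1.77 times the sum of the beta chains in wild type. It stood at 1.12 and 1.04 in ZnF1-/- cells and 1.23 and 1.18 in ZnF4-/- cells, lower in all 4 mutant libraries than in either wild-type library. This ratio was chosen after its values were seen, and the difference was not tested.

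H2-O is built from H2-Oa and H2-Ob and restrains H2-DM. H2-Oa was at 132.7 and 134.6 RPKM in wild type, 150.4 and 113.9 in ZnF1-/- cells and 134.3 and 265.0 in ZnF4-/- cells. ZnF4-/- replicate 2 had 1.97 times the level of ZnF4-/- replicate 1, the widest ratio within that pair, while ZnF4-/- replicate 1 was within the wild-type range. The log2 fold change was 0.50 in ZnF4-/- cells (SE 0.30, adjusted p = 0.439) and -0.03 in ZnF1-/- cells (adjusted p = 0.984). Without ZnF4-/- replicate 2 the ZnF4-/- value was 0.01, and without ZnF4-/- replicate 1 it was 0.98. H2-Ob was at 287.8 and 256.7 RPKM in wild type, 302.3 and 287.5 in ZnF1-/- cells and 264.5 and 422.2 in ZnF4-/- cells. Its genotypes overlapped, with log2 fold changes of 0.12 and 0.30 (adjusted p = 0.903 and 0.547).

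Set against H2-DM, H2-O RNA was at a ratio of 1.03 and 0.923 in wild type, 0.849 and 0.907 in ZnF1-/- cells and 0.988 and 1.12 in ZnF4-/- cells, taking the summed chains of each. Both ZnF1-/- libraries were below, and ZnF4-/- replicate 2 was above, the wild-type pair. On the log2 scale the ratio was lower by 0.15 in ZnF1-/- cells (a difference of -0.15, exact permutation p = 0.333, the smallest this design allows) and differed by 0.11 in ZnF4-/- cells (exact permutation p = 0.667). Between the mutants the difference was 0.26 (exact permutation p = 0.333). None of these can pass a threshold of 0.05 with 2 libraries in a group.

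Ciita, the class II transactivator, was at 77.4 and 70.8 RPKM in wild type, 104.1 and 90.4 in ZnF1-/- cells and 83.3 and 150.7 in ZnF4-/- cells. The libraries of a mutant lay above both wild-type libraries for 21.1% of all tested genes in ZnF1-/- cells and 23.1% in ZnF4-/- cells. For Ciita all 4 mutant libraries did so, as they did for H2-DMb1, H2-DMb2 and the summed granulocyte markers, whose part in these levels was not tested. The log2 fold change was 0.39 in ZnF1-/- cells (SE 0.26, adjusted p = 0.622) and 0.59 in ZnF4-/- cells (SE 0.26, unadjusted p = 0.0515, adjusted p = 0.290), with 95% intervals from 0.863- to 1.98-fold and from 0.996- to 2.29-fold. Without ZnF4-/- replicate 2 the ZnF4-/- value was 0.17, and without ZnF4-/- replicate 1 it was 1.02 (adjusted p = 0.698 and 0.123). H2-Aa stood at 23.0 and 20.7 times the level of Ciita in wild type, 19.9 and 17.2 times in ZnF1-/- cells and 22.5 and 24.2 times in ZnF4-/- cells. The ZnF1-/- libraries were thus lowest in H2-Aa RNA per Ciita RNA.

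Over the whole machinery, 0 of 10 genes were called by limma in ZnF1-/- cells against wild type, where 0.271% of all tested genes were called, 0 of 10 in ZnF4-/- cells against wild type, where 3.20% were, and 0 of 10 in ZnF4-/- against ZnF1-/- cells, where 4.78% were. At an unadjusted p under 0.05 the counts were 1 (11.9% of all tested genes), 1 (17.4%) and 0 (20.0%), the gene against wild type being H2-DMb1 in both mutants. In ZnF4-/- cells against wild type that count was 5 under quantile normalization, where 1783 of all 10322 tested genes had such a p. It was 0 with the replicate number as a block (1931 of all tested genes) and 0 with a term for sex (1473). The median log2 fold change was 0.10 in ZnF1-/- cells with 8 of 10 genes positive, beside a median of 0.00 over all tested genes, 49.5% of which were positive. It was 0.41 in ZnF4-/- cells with 10 of 10 positive, beside -0.02 and 47.2% over all tested genes. Between the mutants it was 0.22 with 9 of 10 positive, beside -0.03 and 45.8%. Libraries did not overlap and were higher for H2-DMb1, H2-DMb2 and Ciita in ZnF1-/- cells, 3 of 10 against 21.1% of all tested genes, and for H2-Aa, H2-Ab1, H2-DMb1, H2-DMb2 and Ciita in ZnF4-/- cells, 5 of 10 against 23.1%. Between the mutants only H2-DMb1 did not overlap, lower in ZnF4-/- cells, 1 of 10 against 25.8%. The wild-type libraries serve both comparisons, so these counts share their controls. Without ZnF4-/- replicate 2 the ZnF4-/- values of the 10 genes lay between -0.17 and 0.23, 7 of them positive, and without ZnF4-/- replicate 1 they lay between 0.42 and 1.18. In ZnF1-/- replicate 1 alone, the median stood 0.33 above the wild-type mean, with summed granulocyte markers of 1424 RPKM in that library.

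**Figure D3:**
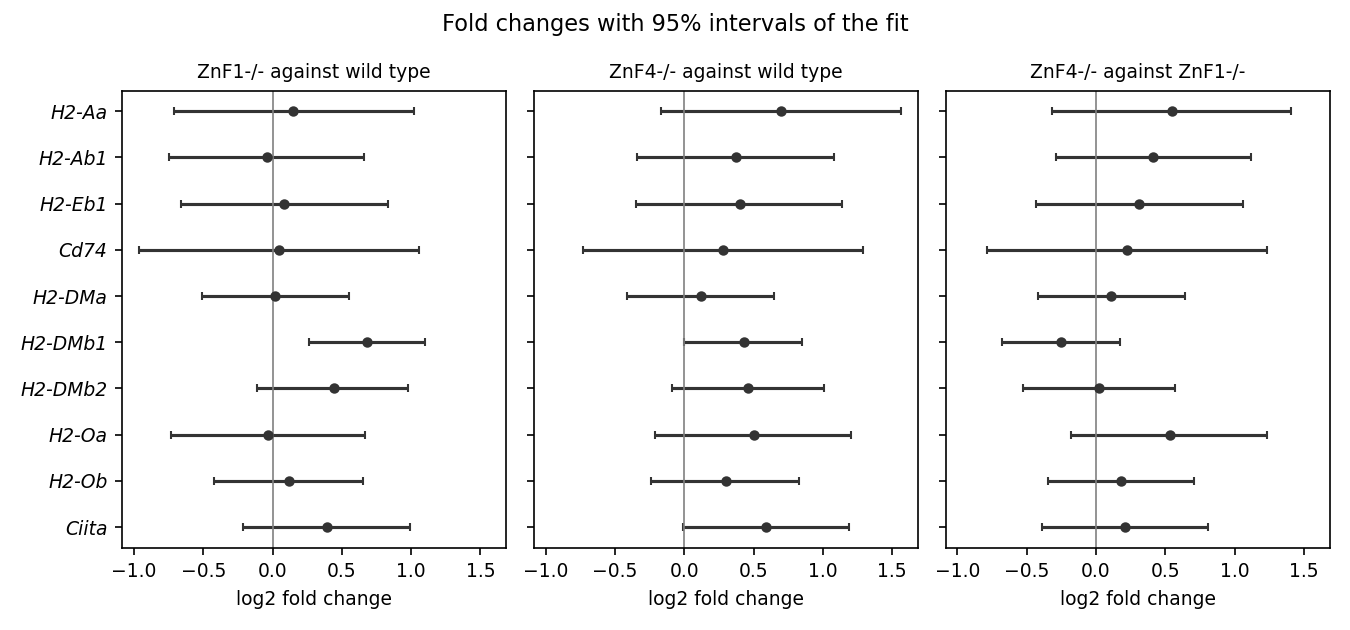
Log2 fold changes (points) of the 10 genes with 95% intervals of the moderated fit (bars) in the 3 comparisons. The intervals of H2-DMb1 lie above 0 in ZnF1-/- cells (0.26 to 1.10) and touch it in ZnF4-/- cells (0.00 to 0.85), all others include 0, and none of the genes passed after adjustment over all tested genes.

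The plot of fold changes shows how little the design can separate: for H2-Aa the interval between the mutants ran from 0.802- to 2.66-fold and for Cd74 from 0.580- to 2.35-fold. Differences of 2-fold in these genes therefore lie within several of the intervals, and values that did not pass are not shown to be equal.

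The factors that bind the class II promoters were measured next. Of 10 such genes tested, none was called in any comparison. Over all tested genes 0.271% were called in ZnF1-/- cells, 3.20% in ZnF4-/- cells and 4.78% between the mutants, so 0 of 10 says little about these factors. The median log2 fold change of the 10 factors was -0.02 in ZnF1-/- and -0.08 in ZnF4-/- cells. Rfx5, the large subunit of the factor that binds the X box, was at 33.3 and 37.2 RPKM in wild type, 31.4 and 32.4 in ZnF1-/- cells and 37.3 and 49.4 in ZnF4-/- cells. Rfx5 was thus highest in ZnF4-/- replicate 2 as well (log2 fold change 0.28, adjusted p = 0.40). Nfyb, a subunit of the Y box factor NF-Y, was at 25.0 and 23.9 RPKM in wild type, 24.2 and 20.6 in ZnF1-/- cells and 19.4 and 17.4 in ZnF4-/- cells, lowest in ZnF4-/- replicate 2, and did not pass (-0.40, adjusted p = 0.173).

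Among 10 tested transcription factors known to act on Ciita or on B cell identity, 2 fell in ZnF4-/- cells and 8 did not pass, while none of 10 was called in ZnF1-/- cells; over all tested genes 3.20% and 0.271% were called. The median log2 fold change of the list was -0.42 in ZnF4-/- cells, with 9 of 10 negative, and -0.32 in ZnF1-/- cells, with 6 of 10 negative. The positive value in ZnF4-/- cells was that of Irf8, a factor of B and myeloid cells, at 358.9 and 363.6 RPKM against 245.1 and 199.3 in wild type and 253.1 and 218.1 in ZnF1-/- cells (0.71, adjusted p = 0.0754). Sfpi1, now named Spi1, encodes PU.1, an activator of Ciita promoters. Sfpi1 levels were 78.3 and 78.8 RPKM in wild type, 76.8 and 80.8 in ZnF1-/- cells and 45.6 and 44.7 in ZnF4-/- cells, and the replicates of each genotype lay close together. Sfpi1 fell by 0.79 on the log2 scale in ZnF4-/- cells (SE 0.11, adjusted p = 0.0133) and was also lower than in ZnF1-/- cells (-0.80, adjusted p = 0.0108), so its level did not follow that of the class II genes from library to library. Without any one wild-type or ZnF4-/- library the ZnF4-/- value stayed between -0.81 and -0.78 and did not pass (adjusted p between 0.117 and 0.135). The difference between the mutants did not pass without ZnF4-/- replicate 1 or 2 either (-0.81 and -0.78, adjusted p = 0.108 and 0.0888). Foxo1, a factor of early B cell development, was at 79.7 and 72.3 RPKM in wild type, 70.9 and 55.2 in ZnF1-/- cells and 47.8 and 39.5 in ZnF4-/- cells, and fell by 0.80 (adjusted p = 0.0492). It did not pass without any one wild-type or ZnF4-/- library (values from -0.93 to -0.66, adjusted p from 0.172 to 0.328), nor with a term for sex (-0.64, adjusted p = 0.0987). Bcl6, a transcriptional repressor needed in germinal centre B cells, was lower in ZnF4-/- than in ZnF1-/- cells (-0.67, adjusted p = 0.0247), at 19.7 and 20.4 against 33.2 and 31.3 RPKM. Without any one library this value lay between -0.71 and -0.63 and did not pass (adjusted p from 0.0564 to 0.171).

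Endosomal proteases and other genes of peptide processing gave 0 calls among 12 tested genes in each mutant against wild type. Over all tested genes 0.271% were called in ZnF1-/- and 3.20% in ZnF4-/- cells. The median log2 fold change of the 12 genes was 0.17 in both. Between the mutants 1 of 12 was called, beside 4.78% of all tested genes. Ctsd, the protease cathepsin D, was at 60.5 and 53.9 RPKM in wild type, 70.0 and 92.3 in ZnF1-/- cells and 47.8 and 49.9 in ZnF4-/- cells, and the level in ZnF4-/- cells was lower than in ZnF1-/- cells with a log2 fold change of -0.71 (adjusted p = 0.0488). Its highest library, ZnF1-/- replicate 2, is the one rich in granulocyte RNA, and the part of that RNA was not tested. Without that library the difference was -0.51 (adjusted p = 0.152), and it passed only when ZnF1-/- replicate 1 was the library left out (-0.91, adjusted p = 0.0157). With the replicate number as a block it did not pass (adjusted p = 0.0603).

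Of 6 tested genes of co-stimulation, none was called in any of the 3 comparisons, beside 0.271%, 3.20% and 4.78% of all tested genes. Cd86, a co-stimulatory ligand, was at 16.6 and 10.5 RPKM in wild type, 13.8 and 10 in ZnF1-/- cells and 4.5 and 6.6 in ZnF4-/- cells, lower in ZnF4-/- cells without overlap (-1.20, SE 0.27, adjusted p = 0.0687). Cd40, the receptor for T cell help, was at 75 and 89.5 RPKM in wild type, 104.4 and 96.0 in ZnF1-/- cells and 119.3 and 123.8 in ZnF4-/- cells (0.57 in ZnF4-/- cells, adjusted p = 0.0809). The ZnF4-/- replicates lay close together in Cd40, unlike in the class II genes.

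**Figure D4:**
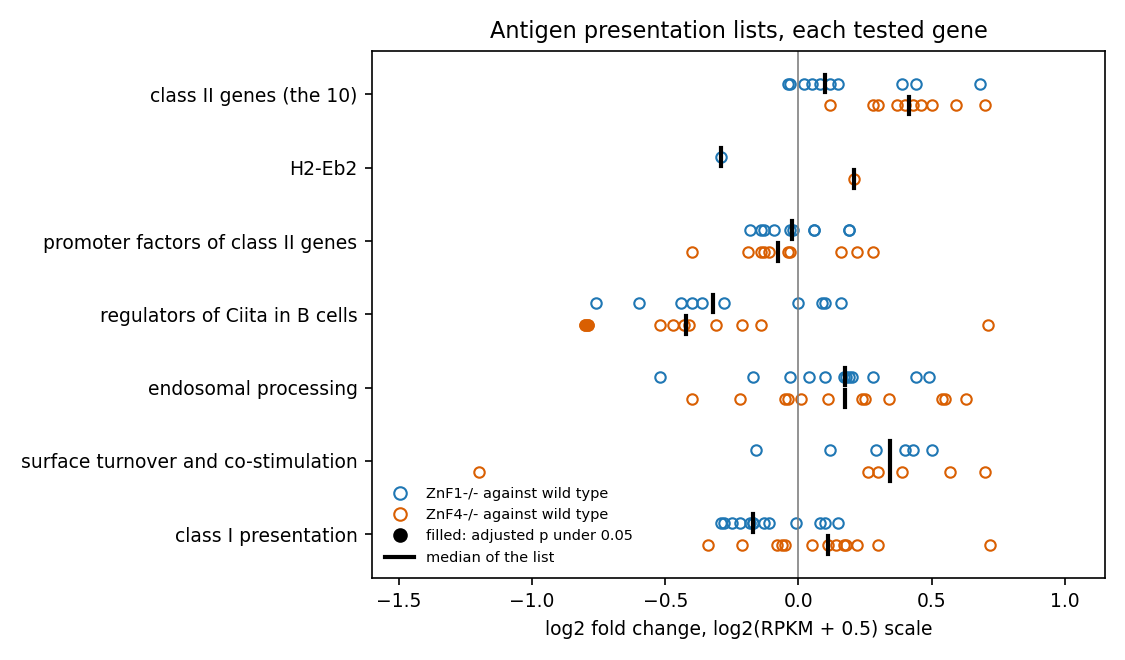
Log2 fold change of every tested gene of each list in ZnF1-/- (blue) and ZnF4-/- (orange) cells against wild type; filled points have an adjusted p under 0.05 and black bars are list medians. All 10 class II points lie above 0 in ZnF4-/- cells (median 0.41) and no class II point is filled; the filled points are Sfpi1 and Foxo1.

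Of 13 tested MHC class I presentation genes, 0 were called in ZnF1-/- or in ZnF4-/- cells against wild type, beside 0.271% and 3.20% of all tested genes. The class I genes serve CD8+ T cells and include genes inside the class II region of the chromosome. Their median log2 fold change was -0.17 in ZnF1-/- cells and 0.11 in ZnF4-/- cells. Relative to the wild-type mean, their median was 0.19 in ZnF4-/- replicate 2 and -0.07 in ZnF4-/- replicate 1, against 0.75 and 0.08 for the class II genes; this contrast was not tested. Nlrc5, the transactivator of class I genes and a relative of Ciita, was at 15.7 and 21.0 RPKM in wild type, 15.4 and 15.7 in ZnF1-/- cells and 27.9 and 33.0 in ZnF4-/- cells. It was higher in ZnF4-/- than in ZnF1-/- cells by 0.94 (adjusted p = 0.0235) and did not pass against wild type (0.72, adjusted p = 0.0714, or 0.0465 with the replicate number as a block). Without ZnF1-/- replicate 2, ZnF4-/- replicate 1 or ZnF4-/- replicate 2 the difference between the mutants did not pass (0.96, 1.06 and 0.82; adjusted p = 0.0595, 0.147 and 0.192).

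Other cells of the marrow carry class II molecules, so their markers were set beside these values. Among 9 dendritic cell markers, Itgax, Xcr1, Clec9a and Batf3 were at or below 1.0 RPKM in every library, and Itgax was listed at 0.0 in both ZnF4-/- libraries. Zbtb46 was at 0.1 in both wild-type libraries, 0.3 in both ZnF1-/- libraries and 0.6 and 1.4 RPKM in ZnF4-/- cells. It was highest in ZnF4-/- replicate 2, with values near the rounding step of 0.1. The summed level of the list was 93.3 and 94.2 RPKM in wild type, 91.6 and 74.1 in ZnF1-/- cells and 76.1 and 99.6 in ZnF4-/- cells, most of it from Ccr7, which B cells also express. Cd209a was at 0.3 and 0.6 RPKM in wild type, 1.2 and 1.5 in ZnF1-/- cells and 3.6 and 3.9 in ZnF4-/- cells. Flt3 and Siglech were instead highest in ZnF1-/- replicate 2. Flt3 was at 0.6 and 1.0 RPKM in wild type, 1.2 and 3.2 in ZnF1-/- cells and 0.7 and 1.1 in ZnF4-/- cells. Siglech was at 1.1 and 4.0 RPKM in wild type, 5.3 and 7.2 in ZnF1-/- cells and 2.3 and 1.9 in ZnF4-/- cells. The summed level of 10 macrophage and monocyte markers was 39.9 and 19.4 RPKM in wild type, 54.5 and 85.6 in ZnF1-/- cells and 42.0 and 31.6 in ZnF4-/- cells, and the part of these cells and of dendritic cells in the class II levels was not tested. Those of T cells summed to between 3.5 and 6.0 RPKM over 6 genes, and those of plasma cells were highest in wild-type replicate 1 (538 RPKM over 5 genes) and between 59.0 and 148.3 elsewhere.

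Markers of B cell maturation did move with the class II genes within the ZnF4-/- pair. The summed level of 6 genes of mature follicular B cells was 536 RPKM in ZnF4-/- replicate 1 and 867 in replicate 2, beside 709 and 544 in wild type and 996 and 845 in ZnF1-/- cells. Fcer2a, which encodes CD23, was at 194.9 and 383.5 RPKM in ZnF4-/- cells, 252.5 and 229.0 in wild type and 426.1 and 442.6 in ZnF1-/- cells. The ZnF1-/- libraries were thus close to ZnF4-/- replicate 2 in these markers, with class II medians of 0.33 and -0.10 against 0.75 in that library. The 3 markers of immature B cells summed to 119.6 and 90.9 RPKM in ZnF4-/- cells, 101.4 and 108.3 in ZnF1-/- cells and 179.8 and 196.0 in wild type. Pre-B and pro-B cell markers summed to 737 and 716 RPKM in ZnF4-/- cells, 622 and 673 in wild type and 589 and 482 in ZnF1-/- cells, most of it from Vpreb3 (407 to 612 RPKM). Igll1, a surrogate light chain gene, was at 130.4 and 121.3 RPKM in ZnF4-/- cells, 5.7 and 13.7 in wild type and 18.5 and 28.6 in ZnF1-/- cells. Vpreb1, a further surrogate light chain gene, was at 25.9 and 14.6 RPKM in ZnF4-/- cells, 1.9 and 3.8 in wild type and 6.1 and 4.2 in ZnF1-/- cells. Kit was at 6.0 and 6.6 RPKM in ZnF4-/- cells, 0.3 and 0.7 in wild type and 0.6 and 3.1 in ZnF1-/- cells. Rag1, a recombinase gene, went the other way, with 4.4 and 2.2 RPKM in ZnF4-/- cells, 14.5 and 17.6 in wild type and 12.3 and 9.2 in ZnF1-/- cells. So did Rag2 (0.7 and 0.3 RPKM in ZnF4-/- cells, 1.4 and 1.8 in wild type, 1.7 and 1.8 in ZnF1-/- cells). In the same order of genotypes, Dntt was at 0.2 and 0.3, 2.1 and 11.1, and 13.5 and 17.7 RPKM. Vpreb2, also a surrogate light chain gene, was at 0.1 and 0.1, 0.6 and 0.6, and 1.8 and 2.1 RPKM. The part of maturation in the class II levels was not tested.

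Within the machinery, the likeness of each gene to the mean profile of H2-Aa, H2-Ab1 and H2-Eb1 over the 6 libraries was described by Pearson's r on log2 values. It was 0.97 for H2-Oa, 0.92 for H2-Ob, 0.90 for Ciita, 0.88 for Cd74, 0.83 for H2-DMb2, 0.82 for H2-DMa and 0.43 for H2-DMb1. These values rest on 6 points that share genotype and library. Among the 10312 other tested genes, 122 had an r of at least 0.90, and the 5 most alike were Faah, Lemd2, Sh3bp5, Plcxd1 and Wdr92, with r between 0.98 and 0.99. Faah was at 2.7 and 4.7 RPKM in ZnF4-/- replicates 1 and 2 and between 2.4 and 3.0 in the other libraries, and Sh3bp5 lay between 99.2 and 132.0 RPKM in all 6.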

How the data were processed

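Poly(A)-enriched RNA was made into libraries with an Illumina TruSeq kit, per the labels' protocols. The authors deposited RPKM per RefSeq transcript, rounded to steps of 0.1, with each transcript's length in bases; TopHat, bedtools and the assembly mm9 are named in the submitters' processing notes, and versions and the reads forming the scaling total are not given in the sources used here. Of 26532 rows, 1 held no values. RPKM times length in kilobases summed to 0.775 to 0.833 of that total, and at most 48.5% of values of transcripts under 150 bases fell on whole reads, so depth is unknown and no counting interval is given.

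The transcript with the highest mean stood for each of 22098 names. Values were log2(RPKM + 0.5), without further scaling. Genes with a mean of at least 1 RPKM (10322) were fitted with 1 coefficient per genotype over all 6 libraries (limma 3.58.1, R 4.3.3, eBayes with trend, two-sided), with Benjamini-Hochberg adjustment over them and calls at 0.05. Fold changes are differences on this scale. Exact permutation tests served the level ratios.

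The members and the lists were chosen with earlier results of these data known. Named genes were all members, Ikzf1, each list's called genes (or the 2 with the smallest p in the ZnF4 comparison) and the 5 most alike in profile; Irf8, the single markers and the ratios between single chains were chosen after their values were seen. Same-numbered replicates correlated in their deviations with r of 0.28, -0.03 and 0.21, and the labels state no shared origin, so they were not paired. Strand is not stated.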

Additional observations from a re-analysis of the deposited data

How the results depend on the processing

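None of the 10 genes was called under any of the alternatives run. With a term for sex the ZnF1-/- values of H2-Eb1 (-0.02), H2-DMa (-0.05), H2-Ob (-0.03), Sfpi1 (-0.01) and Faah (-0.09) turned, as did that of Faah under quantile normalization (-0.08); the cause was not tested. Leaving out single libraries turned values near 0 and also larger ones, such as H2-Eb1 (0.40) and H2-Ob (0.30) in ZnF4-/- cells and H2-Eb2 between the mutants (0.49); the remaining library of that genotype is then assumed to vary like the others. In ZnF1-/- cells against wild type the ranges were -0.05 to 0.36 for H2-Aa, -0.34 to 0.25 for H2-Ab1, -0.14 to 0.31 for H2-Eb1, -0.14 to 0.18 for H2-DMa, -0.23 to 0.17 for H2-Oa, -0.25 to 0.36 for Cd74, -0.08 to 0.18 for Ikzf1, -0.80 to 0.23 for H2-Eb2, -0.03 to 0.04 for Sfpi1, -0.48 to 0.16 for Cd86, -0.12 to 0.15 for Faah, -0.07 to 0.05 for Lemd2, -0.09 to 0.12 for Sh3bp5, -0.06 to 0.17 for Plcxd1 and -0.13 to 0.10 for Wdr92. In ZnF4-/- cells against wild type they were -0.03 to 0.82 for H2-Eb1, -0.17 to 0.42 for H2-DMa, -0.04 to 0.63 for H2-Ob, -0.26 to 0.67 for H2-Eb2 and -0.02 to 0.33 for Wdr92. Between the mutants they were -0.11 to 0.74 for H2-Eb1, -0.18 to 0.40 for H2-DMa, -0.33 to 0.37 for H2-DMb2, -0.16 to 0.52 for H2-Ob, -0.08 to 0.53 for Cd74, -0.22 to 0.63 for Ciita, -0.02 to 1.01 for H2-Eb2 and -0.01 to 0.34 for Wdr92.

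The number of all genes called by limma, 28 in ZnF1-/- cells (10 higher and 18 lower), became 104 without a filter (58 higher and 46 lower), 13 under quantile normalization, 0 with only the 2 genotypes compared (1053 before adjustment at p under 0.05), 0 when sex was a term (863 before adjustment) and 0 to 512 without single libraries, highest without ZnF1-/- replicate 1. In ZnF4-/- cells 330 (184 higher and 146 lower) became 212 at a mean of at least 5 RPKM (99 higher and 113 lower), 594 with only the 2 genotypes compared, 171 with a term for sex and 0 to 591 without single libraries, 0 (1551 and 1219 at an unadjusted p under 0.05) without ZnF4-/- replicate 1 or 2. Between the mutants 493 became 327 without a filter (231 higher and 96 lower), 249 with only the 2 genotypes compared and 0 to 814 without single libraries. The cause was not tested. With the replicate number as a block the counts were 27, 327 and 529, and among the named genes Ctsd lost its call between the mutants and Nlrc5 gained one against wild type (adjusted p = 0.0465), with no other change of call. Of the ratios, Cd74 to classical chains ranged without single libraries from -0.46 to 0.04 in ZnF4-/- cells, -0.07 to 0.05 in ZnF1-/- cells and -0.45 to 0.05 between the mutants, and H2-O to H2-DM kept its direction. Neither other scaling moved the median of all genes by more than 0.02. Since RPKM hold no depth, precision rests on 2 libraries per genotype.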
